A study of Mus musculus with 36 samples.

Results

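The chromatin accessibility of 8 genes of the MHC class I pathway was followed across 36 ATAC-seq libraries of mouse CD4+ T cells. These genes were the class I heavy chains H2-K1 and H2-D1, their partner B2m, the transactivator Nlrc5, the peptide transporter subunits Tap1 and Tap2, and the immunoproteasome subunits Psmb8 and Psmb9. ATAC-seq uses the Tn5 transposase to cut and tag open chromatin, so that reads pile up in peaks over accessible promoters and distal elements. A peak was assigned to a gene if its midpoint was nearest to a start site of a protein-coding transcript of that gene, or if it overlapped the gene body. This rule selected 43 of the 71509 peaks, of which 42 met the first condition, 21 the second and 19 both for the same gene. The peak 3.7 kb downstream of the Psmb8 start overlapped Psmb8 but was nearest to Tap2, and so met them for different genes. Nlrc5 had 17 peaks, Psmb9 had 6, H2-K1 and Tap2 had 5 each, H2-D1 and Tap1 had 4 each, B2m had 3 and Psmb8 had 2, and a peak could count for more than 1 gene.

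The libraries formed 12 groups of 3, given by mouse line, genotype and condition, in mice of mixed 129/Sv x C57BL/6 background aged 6 to 12 weeks. In the HP1α line, KO cells came from Hp1a-/- mice, in which a CMV-cre transgene had removed a floxed Hp1a allele in the germline, and WT cells from Hp1a+/+ littermates. In the HP1γ line, KO cells came from Hp1g fl/fl mice with Cd4-cre, which deletes in T cells, and WT cells from floxed littermates without Cre, so that the HP1γ line WT cells also carried the floxed allele. HP1α and HP1γ are heterochromatin proteins that bind methylated histone H3. Naive cells were CD4+CD62L+CD44-/low cells taken directly from these mice. Tconv were the progeny of such naive cells 3 weeks after transfer into lethally irradiated hosts (C57BL/6 J or CD45.1+ B6 mice) that received C57BL/6 J and semi-allogeneic B6D2F1 bone marrow, sorted from the spleen by the receptor chain Vβ6, which recognizes a superantigen of the B6D2F1 cells. Tconv plus Treg were sorted in the same way from hosts that had also received ex vivo expanded WT regulatory T cells (Treg). Tconv and naive cells thus differed by activation, transfer, host and sort together. The study left out 3 HP1α line libraries of the Tconv plus Treg condition for low signal, which left 2 WT libraries and 1 KO library there, and the labels do not say whether replicates came from separate mice, so that p-values measure the spread between these libraries.

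MHC class I molecules display peptides from inside the cell to CD8+ T cells. The proteasome cuts proteins into peptides, the transporter formed by TAP1 and TAP2 carries them into the endoplasmic reticulum, and a heavy chain bound to β2-microglobulin holds them at the cell surface. NLRC5 does not bind DNA itself but joins RFX, CREB/ATF and NF-Y factors on the SXY module of class I promoters, and interferons raise the transcription of the whole pathway, in part through IRF factors.

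Promoter sequences are given first, to show the module at the start sites, while the values below are those of whole peaks. RefSeq promoter windows of GRCm39, each 300 bases long around the start, were at hand for 6 of the 8 genes, all but Nlrc5 and Tap2. They were searched on both strands for 4 motifs. These were the NF-Y box (CCAAT), the core of a CREB/ATF site (TGACG), a STAT form (TTCNNNGAA) and a strict form of the interferon-stimulated response element. Only exact matches counted, so that looser forms of the interferon-stimulated element were not looked for in any window. The 250 bases before the H2-K1 start, chr17:34219322-34219571 on the minus strand, are shown because they hold the CREB/ATF core and, read on the other strand, the NF-Y box of the module close together, both in capitals:
H2-K1: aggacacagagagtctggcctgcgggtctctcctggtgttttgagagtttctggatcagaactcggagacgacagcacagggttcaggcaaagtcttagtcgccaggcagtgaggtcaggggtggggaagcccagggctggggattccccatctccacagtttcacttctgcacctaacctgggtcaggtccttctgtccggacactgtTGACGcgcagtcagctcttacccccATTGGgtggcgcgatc

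The same pair of letters, with the same number of bases between them, stood in 3 of the 6 windows. The 30-base stretches from the CREB/ATF core to the NF-Y box are set side by side to show that their ends are shared while the bases between differ, at chr17:34219333-34219362 (minus strand), chr17:35481969-35481998 (plus strand) and chr2:121978090-121978119 (plus strand):
H2-K1: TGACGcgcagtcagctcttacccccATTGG
H2-D1: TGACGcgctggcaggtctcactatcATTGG
B2m: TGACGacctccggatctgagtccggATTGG

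Among all 32851 windows of the table, 31 (0.09%) held this pair with the starts of the motifs 25 bases apart, a spacing that was looked for after the windows of these genes had been seen. On their own the motifs were common. The NF-Y box was in 37.4% of all windows, the CREB/ATF core in 20.8%, both in 7.7%, the STAT form in 8.3% and the strict interferon-stimulated form in 3.4%. The window of B2m also held the strict form of the interferon-stimulated element, at chr2:121978019-121978048. Its absence from the other windows does not mean that they lack an interferon response element. Tap1 held the CREB/ATF core and the NF-Y box far apart, at chr17:34406432-34406461 and chr17:34406296-34406325, and Psmb8 held the STAT form, at chr17:34417062-34417091. These are shown with their flanks and the motif in capitals:
B2m: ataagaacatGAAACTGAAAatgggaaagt
Tap1, CREB/ATF core: cccagagacaggTGACGacagagggtcctg
Tap1, NF-Y box: gggctcggctttCCAATcagcggctgcgcg
Psmb8: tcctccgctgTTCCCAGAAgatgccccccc

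The windows of H2-K1 and H2-D1 were 88.3% identical over 239 aligned bases. Reads had been required to map with high quality, so that stretches alike between these genes may be undercounted at both. Psmb9 and Tap1 are read in opposite directions from 1 shared promoter, and their windows overlapped by 275 bases.

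Depth differed widely between libraries. Reads in peaks ranged from 1.49 to 96.8 megareads (M) per library with a median of 54.8 M. All naive libraries had at least 32.4 M and all HP1γ line libraries at least 19.4 M. The 2 kept WT libraries of the HP1α line with Treg had 12.7 and 1.49 M, and in the smaller of them 16 of the 43 peaks had under 10 reads. The 43 peaks together held 0.0848 to 0.136% of the reads in peaks. The promoters of the targeted genes, Cbx5 for HP1α and Cbx3 for HP1γ, had log2 fold changes of KO against WT cells between -0.106 and 0.134, none past the test, which does not check the deletion because a deleted exon can leave the promoter in place. Of 8 CD4+ T cell markers all had a promoter peak, whereas 1 of 7 B cell markers, 2 of 7 myeloid markers and neither of 2 NK cell markers did. The erythroid transcription factor Klf1 had a promoter peak in all groups, at 8.18 to 27.4 CPM per kb. Summed levels of the CD4+ T cell markers were 90.2 to 195 CPM per kb in the HP1γ line libraries and 81.8 to 114 in those of the HP1α line, except for the WT libraries with Treg at 55.0 and 76.3. The highest sums were those of HP1γ KO cells, which carry Cd4-cre, and the Cd4 promoter reached 76.8 there. Accessibility lost from each cell and a smaller share of cells with the open element cannot be told apart in such bulk libraries.

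Each of the 8 genes had an accessible promoter in all 12 groups. Because Psmb9 and Tap1 share theirs, there were 7 promoter peaks. These peaks were broad, from 2880 to 9140 bp, against a median of 2050 bp over 11419 promoter peaks. The merged peaks of H2-K1 (chr17:34212431-34221570) and H2-D1 (chr17:35480571-35489600) covered their whole gene bodies. Reads were counted per merged peak, so that their spread along the gene was not examined. The others were B2m (chr2:121975861-121982590, which also reaches Patl2), Nlrc5 (chr8:95159981-95164180), Psmb9 and Tap1 (chr17:34404811-34407690), Psmb8 (chr17:34415071-34418590, which also covers the end of Tap1) and Tap2 (chr17:34421631-34425700). Levels are given as CPM per kb, which stands for reads counted in the peak, set to a common depth by TMM scaling over all libraries and divided by peak width in kb, with libraries in replicate order.

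In naive WT cells of the HP1α line the shared Psmb9 and Tap1 promoter was the highest per kb, at 35.6, 31.1 and 31.5. The promoter of B2m was at 21.7, 19.1 and 18.4, and that of Psmb8 at 18.7, 17.9 and 18.4. Those of H2-D1 at 17.3, 16.5 and 15.3 and of H2-K1 at 16.8, 15.6 and 14.4 came next. The lowest were Tap2, at 11.7, 12.6 and 12.5, and Nlrc5, at 12.3, 12.5 and 11.6. B2m and Psmb8 overlapped as neighbours in this order, as did H2-D1 and H2-K1, and Tap2 and Nlrc5, while the libraries of Psmb9 and Tap1 lay above all the others. Naive WT cells of the HP1γ line had the shared promoter at 31.0, 30.2 and 33.0 and the H2-K1 promoter at 15.7, 14.8 and 15.1, which overlapped the HP1α line values for the same promoters. The median over all promoter peaks was 19.1 CPM per kb, and in naive WT cells of the HP1α line the Psmb9 and Tap1 promoter was the only one of the 7 with all libraries above it.

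**Figure D1:**
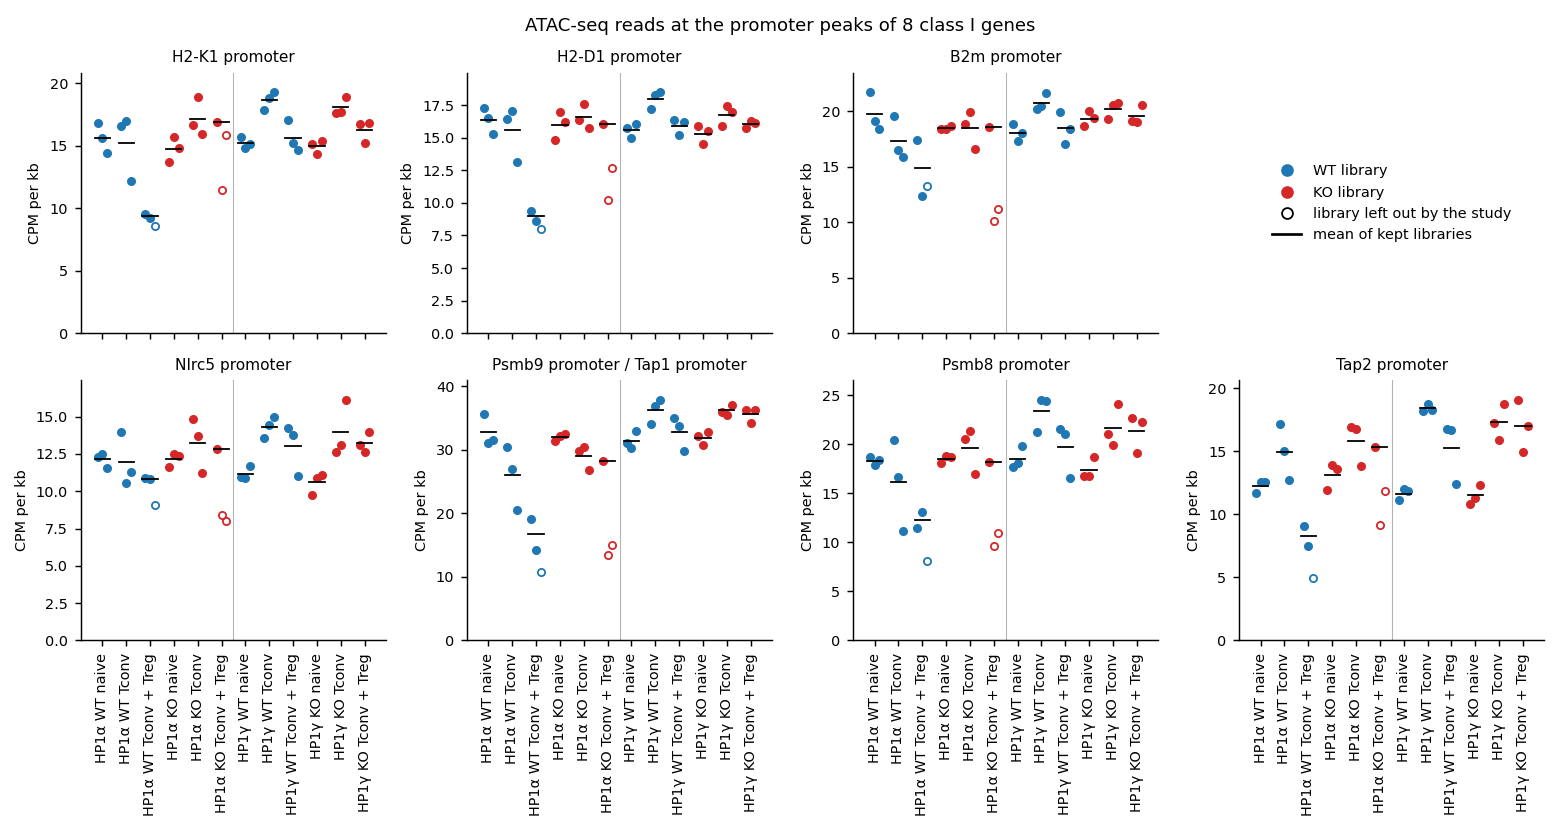
CPM per kb at the 7 promoter peaks in each of the 36 libraries (points, blue WT and red KO), with the mean of the kept libraries as a line, open points for the 3 libraries left out by the study and a vertical line between the HP1α line on the left and the HP1γ line on the right. Most groups of a promoter lie within a narrow band, and the HP1α line WT libraries with Treg sit lowest at H2-K1, where the kept ones are at 9.53 and 9.24.

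The first comparison was between Tconv and naive WT cells and asked what the activated cells open or close around these genes. The largest changes lay at distal elements of Nlrc5 and Psmb9, and those of the promoters were smaller. A peak was called when its adjusted p was under 0.05 in edgeR's quasi-likelihood test and its absolute log2 fold change was over 1, the thresholds of the study. In the HP1α line 10 of the 43 peaks were called higher in Tconv, against 24.9% of all peaks, and 4 lower, against 17.5%. In the HP1γ line 12 were called higher, against 24.5%, and 6 lower, against 22% of all peaks. The counts of higher peaks were close to the shares of all peaks, and those of lower peaks lay under them. All 10 higher and all 4 lower calls of the HP1α line were also called in the HP1γ line, where they made up 83.3% and 66.7% of the calls. This overlap was not counted over all peaks, for which the log2 fold changes of the lines had a Pearson r of 0.948. It is thus not shown to be particular to these genes.

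The intron of Nlrc5 held the element with the smallest adjusted p in the HP1α line. This peak, 13.5 kb downstream of the start (chr8:95173761-95175210), had 0.435, 0.441 and 0.331 CPM per kb in naive and 9.36, 6.43 and 7.85 in Tconv cells of the HP1α line. In the HP1γ line it had 0.469, 0.402 and 0.354 in naive and 11.9, 10.8 and 11.6 in Tconv cells. It was thus nearly closed in every naive library and open in every Tconv library, with log2 fold changes of 4.42 (SE 0.24, adjusted p 2.26e-10) and 4.89 (SE 0.31, adjusted p 1.05e-10).

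Downstream of Psmb9, on the side away from Tap1, lay a second such element, 7.6 kb from the Psmb9 start (chr17:34398371-34399980). It had 0.324, 0.467 and 0.471 CPM per kb in naive and 6.68, 6.87 and 5.30 in Tconv cells of the HP1α line. Values in the HP1γ line were 0.269, 0.160 and 0.159 in naive and 7.18, 10.8 and 10.7 in Tconv cells. No Tconv library overlapped a naive one, and the log2 fold changes were 3.96 (SE 0.30) and 5.68 (SE 0.47).

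Elements upstream of Nlrc5 went the other way. The peak 12038 bp upstream (chr8:95148431-95149530) had 15.1, 16.1 and 16.2 CPM per kb in naive and 1.85, 2.60 and 2.198 in Tconv cells of the HP1α line, a log2 fold change of -2.89 (SE 0.22). In the HP1γ line it fell by 3.39 on the log2 scale (SE 0.18). The peak 6.2 kb upstream (chr8:95154191-95155430) had 15.3, 14.6 and 13.5 in naive and 2.79, 4.34 and 2.18 in Tconv cells of the HP1α line, and fell by 2.14 there (SE 0.20) and by 3.27 in the HP1γ line (SE 0.18). In naive WT cells both elements were more accessible per kb than the Nlrc5 promoter, which had 12.3, 12.5 and 11.6 in the HP1α line, and both overlapped the annotated gene 9330175E14Rik, as the Nlrc5 promoter peak also did. Other Nlrc5 elements called lower in both lines were those 16.1 kb upstream (-1.35 and -1.24 for the HP1α and HP1γ lines) and 17952 bp downstream in an intron (-1.57 and -2.13). Within the same gene the peaks 17.8 kb upstream (2.60 and 2.91), 5.5 kb (2.22 and 1.87), 9.4 kb (1.56 and 1.57) and 24.3 kb downstream (1.85 and 1.96) were called higher. In all, 5 of the 17 Nlrc5 peaks were called higher and 4 lower in the HP1α line, and 6 and 5 in the HP1γ line.

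The remaining calls were spread over the other genes. Higher in both lines were a peak 9.4 kb upstream of B2m (log2 fold changes 1.47 and 1.85), one in a coding exon of Tap1, 1.9 kb from its start (1.67 and 1.70), one 15.4 kb downstream of the Tap2 start, beyond the gene (1.61 and 2.11), and one 12.1 kb downstream of the Psmb9 start (1.32 and 3.21). A peak 22016 bp downstream of H2-K1 and one in an Nlrc5 intron 51.3 kb from the start were called higher in the HP1γ line alone (1.09 and 1.10), and one 13.7 kb downstream of Psmb9 and one 4.9 kb upstream of Nlrc5 were called lower there alone (-1.80 and -1.62). In the HP1α line the same peaks had 0.32, 0.44, -0.89 and -0.58. The difference between the lines was tested for every peak, and 0 of the 43 were called, against 0.028% of all peaks. There were 9 at an unadjusted p under 0.05, against 11097 of all 71506 peaks, and DESeq2 called 0. Over the 43 peaks the log2 fold changes of both lines had the same sign at 31 and a Pearson r of 0.957, near the 0.948 over all peaks.

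**Figure D2:**
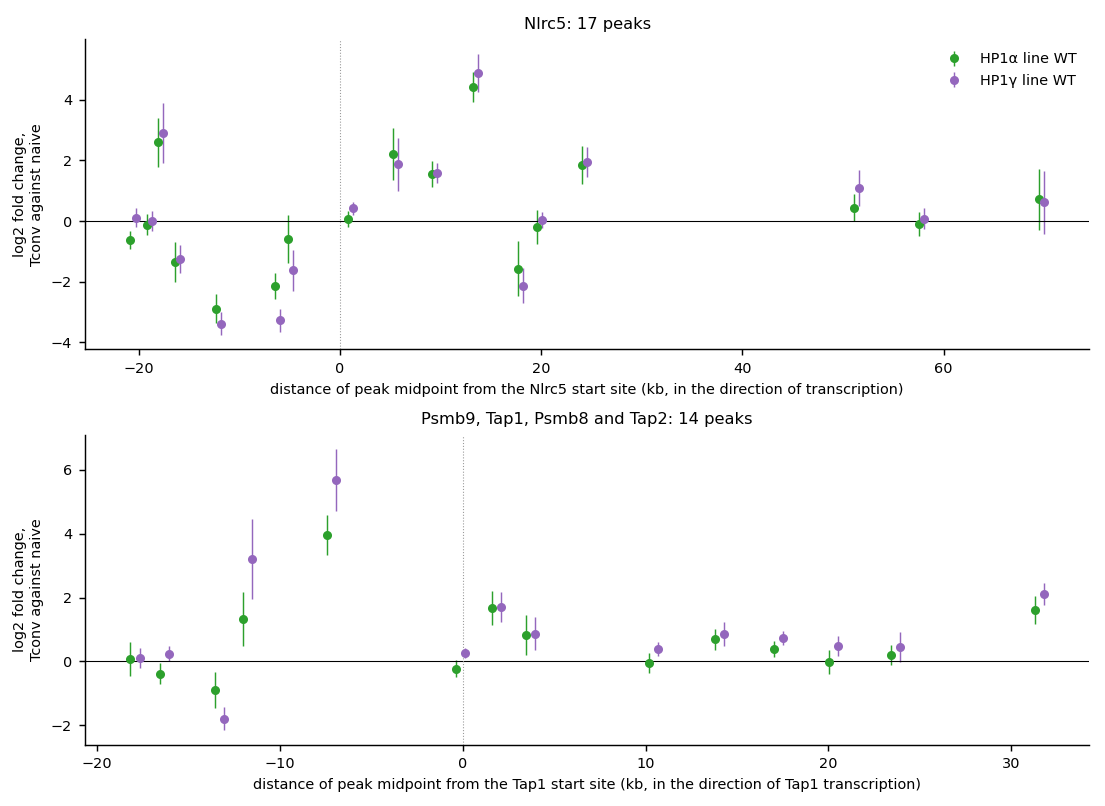
Log2 fold change of Tconv against naive WT cells (points, with bars for 95% intervals) by distance from the start site in kb, above for the 17 peaks of Nlrc5 and below for the 14 peaks of Psmb9, Tap1, Psmb8 and Tap2 by distance from the Tap1 start. Nlrc5 holds both peaks that gain and peaks that lose accessibility, with 4.42 and 4.89 at 13.5 kb downstream against -2.89 and -3.39 at 12038 bp upstream in the HP1α and HP1γ lines.

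The promoters showed small changes. In the HP1γ line all 7 promoters were higher in Tconv at an adjusted p under 0.05, from 0.27 for B2m, H2-D1 and the shared Psmb9 and Tap1 promoter to 0.72 for Tap2 (SE 0.10, adjusted p 5.34e-06). With offsets that follow mean abundance, B2m had 0.10 and H2-D1 0.09, neither past the test, while the shared Psmb9 and Tap1 promoter had 0.12 and H2-K1 0.18 and still passed. Over all promoter peaks 31.9% were higher by the test without these offsets, and among the 2637 other promoter peaks at least as wide as the narrowest of these 41.9% were. By this threshold 24 of the 43 peaks were higher in the HP1γ line, against 35.5% of all peaks. In the HP1α line 15 of 43 peaks were higher, against 30.7%, and 7 lower, against 30.3%, and Tap2 was the only promoter past the threshold, at 0.39 (SE 0.12, adjusted p 0.0124). This value ran from 0.31 to 0.69 under the alternatives tried and missed the threshold under 1 of them. Tap2 rose from 11.1, 11.99 and 11.8 to 18.2, 18.8 and 18.2 CPM per kb in the HP1γ line and from 11.7, 12.6 and 12.5 to 17.2, 14.98 and 12.7 in the HP1α line. The median over the 7 promoters was 0.356 in the HP1γ line, where all promoters had a median of 0.0823. It was 0.00441 in the HP1α line, where all promoters had a median of -0.281, so that in both lines the class I promoters lay above the median promoter by about the same amount. The promoter of Cd8b1, a CD8+ T cell marker, was at 19.8 to 24.1 CPM per kb in naive and 1.79 to 7.06 in Tconv groups, a second CD8+ marker, Cd8a, had no promoter peak, and naive cells had been isolated by negative selection, which removes CD8+ cells. The part of such cells in the values of naive cells was not tested.

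The next comparisons were between KO and WT cells. No difference between HP1α KO and WT cells was detected at the class I genes in naive cells or in Tconv. In naive cells 0 of 43 peaks were called, against 0.00559% of all peaks, with 0 at an unadjusted p under 0.05 and 0 by DESeq2. In Tconv 0 of 43 were called, against 0.021% of all peaks, again with 0 at an unadjusted p under 0.05 and 0 by DESeq2. The log2 fold changes of the 7 promoters lay between -0.09 and 0.10 in naive cells and between 0.03 and 0.19 in Tconv. Their 95% intervals stayed between -0.35 and 0.50, so that a promoter change of more than 1.5-fold was outside every interval. For H2-K1 the interval was -0.34 to 0.17 in naive cells and -0.13 to 0.40 in Tconv.

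In Tconv plus Treg the values of the HP1α line were higher in KO cells at most of the peaks, but rested on few libraries, and the test assumes that the 1 KO library varied like the other groups. The H2-D1 promoter had 16.1 CPM per kb in the kept KO library, against 9.36 and 8.64 in the WT libraries, a log2 fold change of 0.81 (SE 0.20, adjusted p 0.0449). It was the only one of the 43 peaks past an adjusted p of 0.05, which it missed under 14 of the alternatives tried, against 0.245% of all peaks that were higher in KO cells by the same test. The H2-K1 promoter had 16.9 against 9.53 and 9.24 (0.84, SE 0.21, adjusted p 0.0559), and Tap2 had 15.3 against 9.04 and 7.49 (0.81, SE 0.22, adjusted p 0.0753). In the left-out libraries H2-D1 was at 10.2 and 12.7 in KO and at 8.03 in WT cells. With all 18 libraries the H2-D1 promoter had 0.64 (SE 0.23, adjusted p 0.266) and the H2-K1 promoter 0.75 (adjusted p 0.18). By the study's thresholds 0 of 43 peaks were called, against 1.63% of all peaks. At an unadjusted p under 0.05 there were 17, against 11635 of all 71509 peaks, and DESeq2 called 7 of the 43, against 3.57% of all peaks.

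Across the 43 peaks the median log2 fold change was 0.623 and 32 were above 0, while over all peaks the median was -0.114 and 44.1% were above 0. The highest value was 1.58 at the peak 12.1 kb downstream of H2-D1 (adjusted p 0.0808), the peak 8.2 kb downstream of H2-K1 had 1.31 (adjusted p 0.0588), and the lowest was -1.09 at the peak 6.2 kb upstream of Nlrc5 (adjusted p 0.16). Some of the 43 peaks were called when the WT Tconv library 1, KO Tconv library 3, WT Tconv library 3 or KO naive library 1 was left out. The KO group with Treg still held 1 library in each of these fits. The kept KO library had 50.7 M reads in peaks against 12.7 and 1.49 M in the WT libraries, and the summed CD4+ T cell markers were 103 CPM per kb against 55.0 and 76.3. The erythroid sum was 27.0 in the KO library against 14.5 to 21.7 in the WT libraries, and the myeloid sum 14.1 against 9.31 to 9.55. Adding log2 depth to the fit left the median over the 43 peaks at 0.439 and the H2-D1 promoter had 0.68 (adjusted p 0.273). The part of marker levels in this difference was not tested. The test of whether KO and WT cells responded differently to Treg called 0 of 43 peaks, against 0.0461% of all peaks. At an unadjusted p under 0.05 there were 11, against 7391 of all 71509 peaks, and DESeq2 called 1, the peak 8.2 kb downstream of H2-K1, against 0.295% of all peaks.

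**Figure D3:**
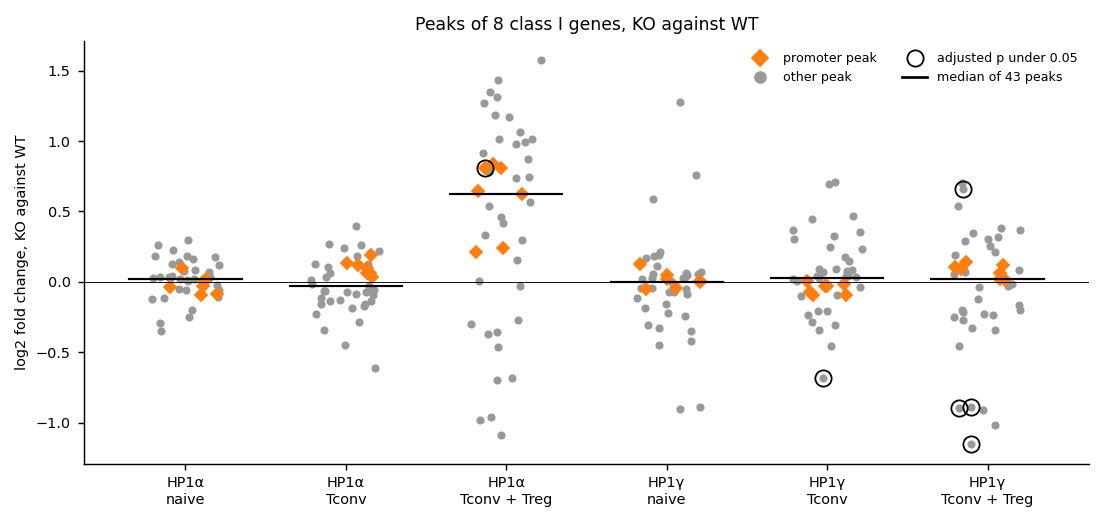
Log2 fold change of KO against WT cells at the 43 peaks in each line and condition (points, with promoter peaks as diamonds, rings for adjusted p under 0.05 and a line at the median). Medians lie near 0 but for the HP1α line with Treg, at 0.623, where 1 KO library was set against 2 WT libraries.

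Between HP1γ KO and WT cells none of the 7 promoters passed the test in any condition. In naive cells 0 of 43 peaks were called, against 0.14% of all peaks. At an unadjusted p under 0.05 there were 3, against 6421 of all 71508 peaks, and DESeq2 called 1, the peak 7.6 kb downstream of Psmb9, against 3.27% of all peaks. In Tconv 0 of 43 were called, against 3.35% of all peaks. At an unadjusted p under 0.05 there were 2, against 14031 of all 71508 peaks, and DESeq2 called 0. Only the peak 9.4 kb upstream of B2m passed the adjusted p there, at -0.68 (SE 0.19, adjusted p 0.042), while 2.92% of all peaks were lower by that test. The promoters had log2 fold changes from -0.05 to 0.13 in naive cells, from -0.09 to 0.01 in Tconv and from 0.01 to 0.14 in Tconv plus Treg. The error was smaller than in the HP1α line. For the H2-D1 promoter the 95% intervals were -0.13 to 0.12, -0.22 to 0.03 and -0.10 to 0.15.

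With Treg, 4 of the 43 peaks passed the adjusted p between HP1γ KO and WT cells, all at Nlrc5, and 3 of these were lower in KO cells, a share no larger than that of all peaks. At the peak 16.1 kb upstream of Nlrc5 (chr8:95144391-95145350) the KO libraries had 0.585, 1.33 and 1.44 CPM per kb and the WT libraries 1.58, 2.67 and 3.82, so that the groups did not overlap. The log2 fold change was -1.16 (SE 0.37, adjusted p 0.0349), which made it the only call among the 43 peaks, where 5.38% of all peaks were called lower and 6.48% higher. The peak 19.0 kb upstream (chr8:95141511-95142620) had 2.55, 4.67 and 3.14 in KO against 6.32, 7.18 and 5.79 in WT cells, a log2 fold change of -0.90 (SE 0.22, adjusted p 0.00812). The peak 12038 bp upstream had 0.743, 1.52 and 1.89 against 2.04, 2.42 and 3.46 (-0.89, SE 0.30, adjusted p 0.0432). By the adjusted p alone these 3 were lower, against 8.92% of all peaks, and 1 was higher, the intronic peak 24.3 kb downstream of the Nlrc5 start (0.66, SE 0.20), against 11.6%.

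The peak 6.2 kb upstream of Nlrc5 lay the other way, at a mean of 5.67 in KO and 4.34 in WT cells, without passing the test (0.34, adjusted p 0.238). No call remained without KO Treg library 1, WT Treg library 2 or WT Treg library 3, whereas 3 peaks were called without KO Treg library 2, 2 without KO Treg library 3 and 3 without WT Treg library 1. In naive cells, where all libraries had at least 32.4 M reads in peaks, the peak 12038 bp upstream had 10.7, 11.2 and 11.3 in KO and 15.4, 15.2 and 14.8 in WT cells, a log2 fold change of -0.42 (SE 0.13) that did not pass the test (adjusted p 0.25). At the peak 6.2 kb upstream the naive KO libraries were also below the WT ones, with 11.7, 13.9 and 14.1 against 19.3, 18.2 and 18.2 (-0.45, SE 0.13, adjusted p 0.233). The test of a different response to Treg in KO and WT cells called 0 of 43 peaks, against 0.0014% of all peaks. There were 3 at an unadjusted p under 0.05, against 9150 of all 71508 peaks, and DESeq2 called 0.

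Exposure to Treg was compared next, as Tconv plus Treg against Tconv of the same genotype. The element 6.2 kb upstream of Nlrc5, which is open in naive cells, was more accessible with Treg in 3 of the 4 genotypes tested. In WT cells of the HP1γ line it had 2.38, 1.65 and 1.36 CPM per kb in Tconv and 5.67, 3.65 and 3.69 with Treg, a log2 fold change of 1.29 (SE 0.25, adjusted p 0.0478). In HP1γ KO cells it had 3.33, 3.45 and 2.41 in Tconv and 5.87, 5.83 and 5.30 with Treg (0.93, SE 0.21, adjusted p 0.00701). WT cells of the HP1α line had 2.79, 4.34 and 2.18 in Tconv and 8.18 and 7.76 with Treg (1.38, SE 0.36, adjusted p 0.0257), and the left-out library had 8.53. No library with Treg overlapped those without in these groups, and all remained under the naive level. In HP1α KO cells the kept library had 3.82 against 2.94, 2.25 and 3.58, a difference that did not pass the test (0.48, SE 0.29, adjusted p 0.802), and the left-out libraries had 6.95 and 5.83.

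In the HP1γ line WT cells this peak was the only call among the 43, where 0.0671% of all peaks were called higher and 0.0699% lower. Its adjusted p lay close to the threshold. The call was lost without any single library of the 18 except WT Treg library 2, KO Treg libraries 1 and 2, WT Tconv library 3 and KO Tconv libraries 1 and 3, leaving 0 called peaks in 12 of 18 cases. In HP1γ KO cells 0 of 43 peaks were called, since the change was under the fold threshold, against 8.15% of all peaks. At an unadjusted p under 0.05 there were 9, against 19484 of all 71508 peaks, and DESeq2 called 0. There 1 peak was higher by the adjusted p, against 9.29% of all peaks, and 2 were lower, against 4.74%. These were the peak 19.0 kb upstream of Nlrc5 (-0.82, SE 0.21) and the peak 4.1 kb upstream of H2-D1 (-0.41, SE 0.13). Without KO Tconv library 1 the peak 6.2 kb upstream of Nlrc5 was called, and without KO Treg library 2 the one 19.0 kb upstream was.

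**Figure D4:**
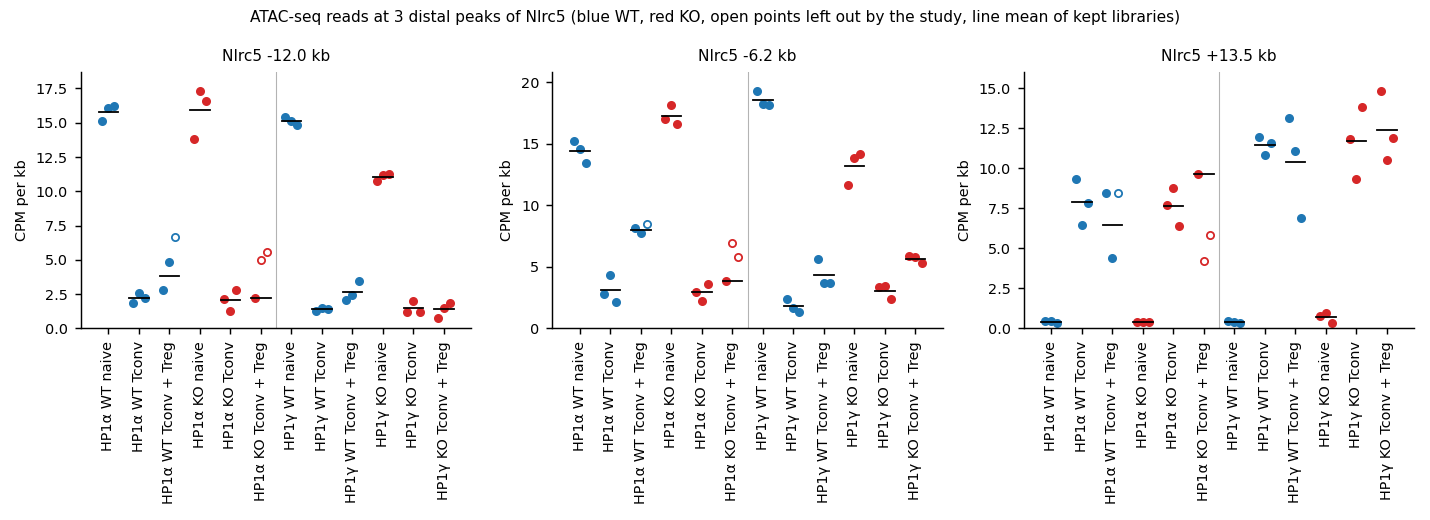
CPM per kb at 3 distal peaks of Nlrc5 in each library (blue WT, red KO, open points left out by the study, line at the mean of the kept libraries). The upstream peaks at 12038 bp and 6.2 kb are high in naive cells and low in Tconv, the intronic peak at 13.5 kb downstream is the reverse, and the middle panel shows the higher values with Treg at 6.2 kb upstream.

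The heavy chain and Tap2 promoters were lower with Treg in HP1α line WT cells. The H2-K1 promoter had 16.6, 16.9 and 12.2 CPM per kb in Tconv and 9.53 and 9.24 with Treg, a log2 fold change of -0.71 (SE 0.18, adjusted p 0.0225). The H2-D1 promoter had 16.4, 17.1 and 13.1 against 9.36 and 8.64 (-0.78, SE 0.17, adjusted p 0.00846), and Tap2 had 17.2, 14.98 and 12.7 against 9.04 and 7.49 (-0.81, SE 0.20, adjusted p 0.0171). With Treg both libraries lay under all 3 Tconv libraries at each of these promoters. The values of Tconv library 3, the shallowest of its group with 6.2 M reads, were the lowest of that group in each case. The other 4 promoters did not pass the test. They were those of Psmb9 and Tap1 (-0.57, adjusted p 0.081), Psmb8 (-0.53, adjusted p 0.17), Nlrc5 (-0.16, adjusted p 0.67) and B2m (-0.12, adjusted p 0.71). Among all promoters 3.07% were lower by this test, and 7.55% of the wide ones. The H2-K1, H2-D1 and Tap2 promoters missed the adjusted p under 5, 3 and 4 of the alternatives tried. All 3 missed it without WT Treg library 1, with GC offsets and with the compared groups alone, at -1.09 to -0.70, and H2-K1 and Tap2 also without WT Tconv library 1. With the left-out library added, they had -0.76, -0.84 and -1.01 and passed.

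By the study's thresholds 3 of 43 peaks were called lower, against 1.84% of all peaks, and 1 higher, the one 6.2 kb upstream of Nlrc5, against 4.92%. The lower ones were 8.2 kb downstream of H2-K1 (-1.30, SE 0.32), 4.1 kb upstream of H2-D1 (-1.10, SE 0.28) and in an intron of Tap2, 7.6 kb from its start (-1.10, SE 0.28). By the adjusted p alone 6 were lower, against 2.35% of all peaks. The median over the 43 peaks was -0.532, against 0.0972 over all peaks. Leaving out WT Treg library 1, with 12.7 M reads, or WT Tconv library 1 gave 0 calls, and without WT Treg library 2 the peak 6.2 kb upstream of Nlrc5 was no longer called. With log2 depth as a covariate there were also 0 calls, against 2.42% of all peaks, while the median over the 43 peaks was -0.398. By the adjusted p the H2-D1 and Tap2 promoters passed there, at -0.70 and -0.61, and H2-K1 did not, at -0.60. The summed CD4+ T cell markers were 81.8 to 113 CPM per kb in Tconv and 55.0 and 76.3 with Treg. The erythroid sums were 19.5 to 26.3 in Tconv and 14.5 to 21.7 with Treg, and the myeloid sums 10.9 to 13.8 and 9.31 to 9.55. The part of marker levels in these differences was not tested. In the other groups the promoters did not pass the test. Their log2 fold changes lay between -0.26 and -0.13 in HP1γ line WT cells (adjusted p of at least 0.091), between -0.17 and -0.04 in HP1γ KO cells and between -0.10 and 0.03 in HP1α KO cells, where 0 of 43 peaks were called, against 0.548% of all peaks. There 2 were at an unadjusted p under 0.05, against 6107 of all 71509 peaks, and DESeq2 called 0.

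Finally, WT cells of the HP1γ line were set against WT cells of the HP1α line, because the class I genes could differ in background between mouse lines. Line cannot be told apart from the experiment in which the cells were made, nor from the floxed Hp1g allele. In naive cells 0 of 43 peaks were called, against 0.46% of all peaks. There 4 were at an unadjusted p under 0.05, against 9966 of all 71506 peaks, DESeq2 called 0, and the promoters had log2 fold changes from -0.05 to 0.10. At the peak 12.1 kb downstream of Psmb9 a call appeared without HP1α line WT naive library 1. In Tconv 0 of 43 were called, against 1.69% of all peaks. There 16 were at an unadjusted p under 0.05, against 19645 of all 71506 peaks, and DESeq2 called 1, the peak 13.7 kb downstream of Psmb9, against 5.41% of all peaks. By the adjusted p alone 2 were higher in the HP1γ line, 22016 bp downstream of H2-K1 (0.58, SE 0.14) and 20.6 kb upstream of Nlrc5 (0.62, SE 0.18), against 4.34% of all peaks. Without HP1α line WT Tconv library 1 there were 2 calls in Tconv and 2 in the difference in activation, and without HP1γ line WT Tconv library 1 there was 1 in each. In every one of these cases the peak 6.2 kb upstream of Nlrc5 was called lower in the HP1γ line.

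With Treg the lines differed at the class I promoters. The H2-D1 promoter had 9.36 and 8.64 CPM per kb in the HP1α line and 16.4, 15.2 and 16.2 in the HP1γ line, a log2 fold change of 0.85 (SE 0.16, adjusted p 0.00218). The shared Psmb9 and Tap1 promoter had 19.1 and 14.3 against 34.9, 33.8 and 29.7 (0.92, SE 0.19, adjusted p 0.0045), and H2-K1 had 9.53 and 9.24 against 17.1, 15.2 and 14.6 (0.79, SE 0.17, adjusted p 0.00645). Tap2 (0.88, SE 0.20) and Psmb8 (0.81, SE 0.23) were also higher in the HP1γ line, whereas B2m (0.26, adjusted p 0.35) and Nlrc5 (0.33, adjusted p 0.30) did not pass the test. The lowest values under the alternatives tried were 0.52 for H2-D1, 0.62 for Psmb9 and Tap1, 0.44 for H2-K1, 0.58 for Tap2 and 0.48 for Psmb8. Psmb8 missed the adjusted p under 8 of the alternatives tried and Tap2 under 4, including GC offsets, depth as a covariate, the compared groups alone and the fit without HP1α line WT Treg library 1. In the fit as reported 5 of 7 promoters were higher, while 10.6% of all promoters and 21.8% of the wide ones were. By the adjusted p 9 of the 43 peaks were higher, against 4.43% of all peaks. By the study's thresholds 3 were called higher, against 2.52%, and 0 lower, with 3.76% of all peaks lower. The 3 were 4.1 kb upstream of H2-D1 (1.29, SE 0.28), 16.7 kb downstream of Psmb9 (1.11, SE 0.25) and 18.6 kb downstream of H2-K1 (1.03, SE 0.25).

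These differences rested on the same 2 HP1α line libraries of 12.7 and 1.49 M reads. Without the first of them 0 peaks were called, 2 were without the second, and 7 were with the left-out library added. Leaving out HP1γ line WT Treg library 3 gave 7 calls, and the other 2 libraries of that group gave 2 calls each when left out. With log2 depth as a covariate 0 were called, the median over the 43 peaks was 0.586 against 0.67 without it, and the H2-D1 promoter had 0.76 (adjusted p 0.0287). Without the first of them all 5 promoters missed the adjusted p. The summed CD4+ T cell markers were 55.0 and 76.3 CPM per kb in the HP1α line and 90.2 to 117 in the HP1γ line, the erythroid sums 14.5 to 21.7 and 24.9 to 28.7, and the myeloid sums 9.31 to 9.55 and 9.88 to 13.4, and the part of these levels in the differences was not tested. The kept HP1α KO library with Treg had 16.1 at H2-D1 and 16.9 at H2-K1, within the range of the HP1γ line WT libraries.

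**Figure D5:**
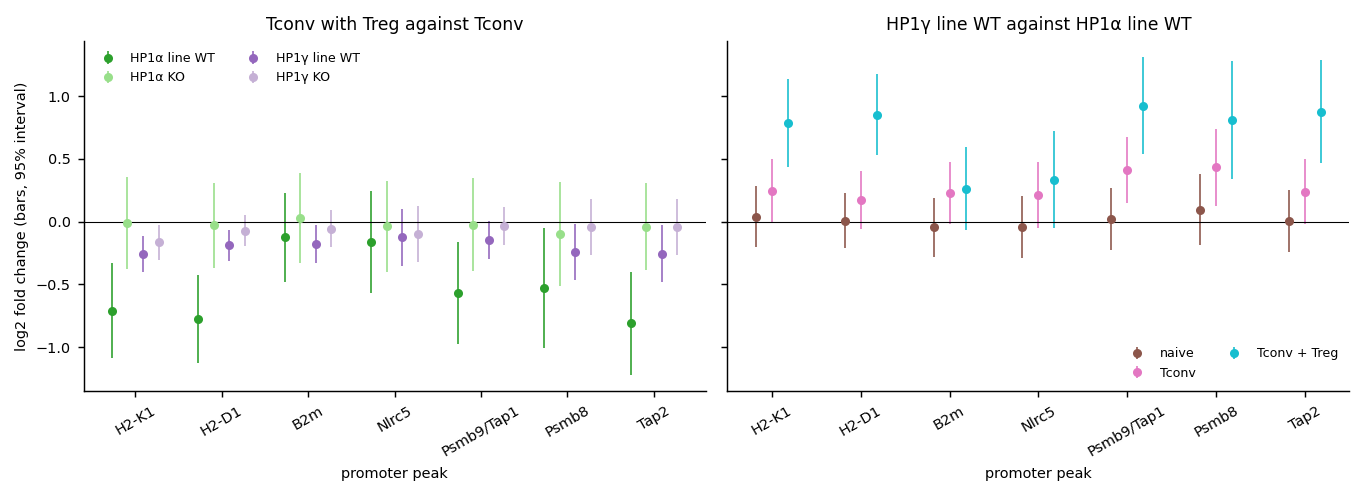
Log2 fold changes with 95% intervals at the 7 promoter peaks, on the left for Tconv plus Treg against Tconv in each genotype and on the right for HP1γ line WT against HP1α line WT cells in each condition. The intervals that lie far from 0 all involve the HP1α line WT cells with Treg, for which H2-D1 has -0.78 on the left and 0.85 on the right.

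The other genes of the pathway were examined at their promoter peaks. In the comparison of Tconv with naive WT cells of the HP1γ line, 7 of 9 proteasome genes rose and 0 fell, where 31.9% of all promoters rose and 17.7% fell. Among them were Psme2, a subunit of the interferon-induced activator of the proteasome (0.85, SE 0.11), Psme3 (0.58, SE 0.11) and the constitutive subunit Psmb6 (0.42, SE 0.11). Of 20 regulators of class I transcription 13 rose, such as the interferon receptor kinase Jak2 (0.61), Irf9 (0.48) and the RFX subunit Rfx5 (0.41). Of 8 peptide loading genes 3 rose, near the share of all promoters, with Tapbp, which bridges the heavy chain and the transporter, at 0.69. Other class I heavy chains were divided, as H2-T22 (0.24) and H2-T24 (0.30) rose while Mr1 (-0.52), Cd1d1 (-0.97) and H2-Q1 (-0.43) fell, of 9 with a promoter peak. Median log2 fold changes were 0.36 for the proteasome, 0.0599 for the heavy chains and 0.108 for peptide loading, against 0.0823 over all promoters.

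In the HP1α line 0 of 9 proteasome genes and 0 of 20 regulators rose in the same comparison, against 10.4% of all promoters, and the median over all promoters was -0.281, while scaling by library size alone moved the median of all peaks by 0.198 upward. There 40.6% of all promoters fell, and 0 of 9 proteasome genes did. Median log2 fold changes were -0.0431 for the proteasome, -0.252 for the regulators, -0.347 for peptide loading and -0.212 for the heavy chains. Of 8 peptide loading genes 5 fell, including Calr (-0.42), Hspa5 (-0.34) and Sec61b (-0.45), as did 5 of 20 regulators, including Creb1 (-0.52), Nfya (-0.51) and Nfyb (-0.47). Cd1d1 (-1.28) and Mr1 (-0.71) fell here too.

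With Treg, HP1α line WT cells had lower values than Tconv at H2-T24 (-1.04), H2-T23 (-0.77), Tapbp (-0.91) and Rela (-1.06), the NF-κB subunit, while the other promoters of these lists did not pass the test and 3.07% of all promoters were lower. Against these cells, those of the HP1γ line with Treg had higher values at 4 of 9 heavy chains, 3 of 8 peptide loading genes, 1 of 9 proteasome genes and 4 of 20 regulators, with H2-T24 at 1.27, Tapbp at 0.99, Psmb6 at 0.95 and Rela at 1.23, where 10.6% of all promoters were higher. Rela was also the only promoter of these lists to pass the test between KO and WT cells of the HP1α line with Treg, at 1.21 (SE 0.29, adjusted p 0.0395), with 0.587% of all promoters higher. The KO value is that of 1 library, which the test assumes to vary like the other groups. Between KO and WT cells of the HP1γ line with Treg, Tapbpl (0.36) and the kinase Jak1 (0.22) were higher in KO cells, as were 12.1% of all promoters. No promoter peak was found for H2-Q4, H2-Q6, H2-Q7, H2-Q10, H2-T3, H2-M2, H2-M5, Psma7, Ciita or Ifngr2.

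Over the 12 group means of the kept libraries the 7 promoters varied together. Pearson's r between pairs of them ran from 0.562 for Nlrc5 with the shared Psmb9 and Tap1 promoter to 0.965 for H2-D1 with H2-K1. All promoters share the depth and signal of their libraries, so these values are a description. The promoters of other genes most like that of H2-K1 were those of Asb6 (r = 0.977), the cytokine Tnf (0.976) and the class I gene H2-T13 (0.973). For B2m they were the peak of Gm44505, Lpxn and Zfp91 (0.979), Kansl1 (0.972) and Grk2 (0.970). For Nlrc5 they were Plekhh3, Arid3a and Ssbp4 (0.970, 0.970 and 0.969), and for Tap1 they were Esrra (0.994), the peak of Rhoa and Tcta (0.993) and Rpl27 (0.992).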

How the data were processed

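ATAC-seq libraries were made from sorted CD4+ T cells with Tn5. Per the labels and the study's methods, the authors trimmed reads with Trim Galore 0.6.7, aligned them to the mouse genome with BWA, removed duplicates and low-quality alignments, called peaks in each library, merged them, and counted reads with featureCounts 2.0.3. The deposited values are raw read counts per peak. A read could be counted in 2 neighbouring peaks, and near-identical class I sequences may lose reads at the quality filter. Of 71512 rows, 3 without a width were left out. Peaks were annotated on GRCm39. Counts were scaled by TMM and tested with edgeR 4.0.16 (quasi-likelihood) in R 4.3.3, with Benjamini-Hochberg adjustment over all peaks. The fits held the 15 kept HP1α line libraries, the 18 of the HP1γ line, or the 17 WT libraries of both lines. The scripts were tested on simulated data. By rule, the promoter peaks and up to 5 called peaks in each direction with the smallest p were named, and up to 3 promoters of each pathway list; other named peaks were chosen after their values were seen. Genes and lists were chosen with earlier results of these data known. Same-numbered libraries deviated together in HP1α KO against WT naive cells (r = 0.25 to 0.5), HP1γ KO against WT Tconv plus Treg (0.15 to 0.32) and HP1γ line WT Tconv plus Treg against Tconv (0.2 to 0.29), where the labels do not say what the number stands for. Alternatives changed the scaling, filter, libraries, covariates and tool.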

Additional observations from a re-analysis of the deposited data

How the results depend on the processing

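The counts of calls with Treg changed with the processing in both lines, and 1 KO and 2 WT libraries of the HP1α line were kept there. Without a scaling factor, by library size alone, the median of all peaks moved by up to 0.198 on the log2 scale (HP1α line Tconv against naive), and GC offsets moved it by up to 0.215 in the difference in activation between lines. Alternatives were computed for the 17 promoter values that passed the adjusted p, none of which reversed its direction, and under alternatives other than leaving out a library 146 values kept their side of the threshold and 24 no longer passed it. The cause was not tested for any of the changes below. In HP1α KO against WT with Treg, where 0 peaks were called, library size alone, relative log expression factors and all HP1α line libraries gave 1 call each (1.85%, 1.42% and 0.743% of all peaks), DESeq2 gave 7 (3.57%), and leaving out libraries gave 0 to 3. In HP1α line WT with Treg against Tconv, with 4 calls, relative log expression factors gave 3 (6.24% of all peaks), abundance offsets, GC offsets and the compared groups alone gave 2 each (6.57%, 5.49% and 5.64%), log2 depth as a covariate gave 0 (2.42%), DESeq2 gave 10 (9.51%), the legacy quasi-likelihood fit, chosen after seeing the data, gave 7 (7.5%), and leaving out libraries gave 0 to 5. In HP1γ KO against WT with Treg the 1 call became 0 with abundance offsets (12.1% of all peaks), depth (11.7%), the compared groups alone (5.14%) or peaks within 10 kb. It became 0 to 3 when libraries were left out. In HP1γ line WT with Treg against Tconv the 1 call became 0 with relative log expression factors (0.103% of all peaks), depth (0.0014%) or the compared groups alone (0%). It became 0 to 1 when libraries were left out. In HP1γ KO with Treg against Tconv abundance and GC offsets gave 1 call each (8.22% and 8.57% of all peaks), and leaving out libraries 0 to 1. Tconv against naive had 14 and 18 calls, and 7 and 9 among the peaks within 10 kb. DESeq2 gave 1 call in the test of KO and Treg in the HP1α line (0.295% of all peaks) and 1 in HP1γ KO against WT naive cells (3.27%). Between lines, leaving out libraries gave 0 to 1 call in naive cells, 0 to 2 in Tconv and 0 to 2 in the difference in activation, and DESeq2 and the legacy fit gave 1 each in Tconv (5.41% and 2.4%). Between lines with Treg the 3 calls became 1 by library size alone (6.24% of all peaks), abundance offsets (4.59%), the compared groups alone (3.22%) or peaks within 10 kb. They became 0 with depth (1.03%), 7 with all HP1α line libraries (9.27%), 6 with the legacy fit (9.35%), 5 with DESeq2 (11%), and 0 to 7 when libraries were left out.

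With the replicate number as a block the calls were 5, against 4 without it, in HP1α line WT with Treg against Tconv (10.2% of all peaks). They were 15 against 14 in HP1α line Tconv against naive (43.4%) and 4 against 3 between lines with Treg (8.75%). In HP1α KO against WT with Treg, where the KO group held 1 library, the block gave more calls, as it did over all peaks. The block changed no count of calls in the 3 comparisons whose same-numbered libraries deviated together. What the number stands for is not given, so pairing is not known. Same-numbered libraries also had r of 0.074 to 0.54 in HP1γ KO against WT Tconv and of -0.23 to 0.56 in HP1α KO against WT Tconv.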

Other observations

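Genes of MHC class II, which presents peptides to CD4+ T cells and is made mainly by professional antigen-presenting cells, each had a promoter peak in the 8 cases examined. In Tconv against naive WT cells 6 of 8 were lower in the HP1α line and 4 of 8 in the HP1γ line by an adjusted p under 0.05 in edgeR's quasi-likelihood test, where 40.6% and 17.7% of all promoters were lower. H2-Ob, which inhibits peptide exchange as part of H2-O, had log2 fold changes of -1.88 and -2.05 in the HP1α and HP1γ lines, and its partner H2-Oa had -1.03 and -1.40. H2-Eb1, a classical class II chain, had -1.14 and -0.77, while another classical chain, H2-Ab1, was higher in the HP1γ line (0.27, adjusted p 0.0455). The invariant chain Cd74 rose in both lines, by 0.45 and 0.64. With Treg, HP1γ KO cells had higher values than WT cells at H2-Eb1 (0.70) and Cd74 (0.46), where 12.1% of all promoters were higher. Among B cell markers only Cd79b had a promoter peak, at 0.902 to 6.37 CPM per kb. In WT cells of the HP1α line it was at 3.71 to 5.61 in naive cells and 2 to 5 in Tconv, and in the HP1γ line at 3.7 to 5.83 and 2.63 to 2.91. The myeloid sums were 14 to 21.7 and 10.9 to 13.8 in the HP1α line, and 16.3 to 17.2 and 12.8 to 17 in the HP1γ line. The part of other cells in the class II values was not tested.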
